A study of Mus musculus with 4 samples.

Results

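The genes described here encode the lysosome's membrane proteins, hydrolases and proton pump, the transcription factors of the MiT/TFE family (TFEB, TFE3 and MITF) that activate such genes, and the folliculin proteins that act on those factors. They were given as 35 mouse gene symbols, and the rows of the deposited table whose Ensembl identifier maps to a symbol were taken. All 35 were found, in 36 of the 14533 rows, because 2 overlapping gene models carry the symbol Glb1. Tfeb and Tfe3 are listed under the older symbols Tcfeb and Tcfe3 in the annotation of this genome build. All 36 rows passed the filter on low values and were among the 13005 genes tested. They comprised 3 MiT/TFE factors, 3 folliculin genes, 6 lysosomal membrane proteins, 7 proteases, 8 rows of glycosidases, 4 genes of lipid breakdown and lipid carriage, 4 genes of the V-ATPase and its accessory protein, and the autophagy receptor Sqstm1.

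The lysosome is the acidic compartment in which proteins, lipids and sugar chains are taken apart. TFEB and TFE3 are kept in the cytoplasm while the kinase mTORC1 is active on the lysosome's surface, and they enter the nucleus and activate lysosomal and autophagy genes when it is not. The complex of folliculin (FLCN) with FNIP1 or FNIP2 acts on the Rag GTPases that bring mTORC1 and these factors together, and in mouse ESCs it has been tied through TFE3 to the exit from the naive state. Much of this control acts on where the proteins sit in the cell, which RNA levels do not measure.

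RNA was sequenced from sorted mouse embryonic stem cells (ESCs) grown for more than 20 days in medium with serum (serum ESCs, 2 libraries) or in serum-free Ndiff 227 medium with the MEK inhibitor PD0325901 and the GSK3 inhibitor CHIR99021 (2i ESCs, 2 libraries). The labels place the cells in late G1-phase, as do the study's figure legends, whereas the text of the series names early G1-phase. Both media contained LIF, per the study's methods. The labels give neither a cell line nor a genotype for these libraries, and the methods describe ESC lines with fluorescent FUCCI cell cycle reporters for sorting. The base medium, the serum and both inhibitors differ together between the groups, so their parts cannot be told apart. The samples are called biological replicates without further detail, so the spread behind a p-value is that between 2 libraries of each condition, whatever they represent. The test used here also draws each gene's spread toward that of genes with similar levels. A standard error can therefore exceed what a gene's own replicates show.

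The deposited values are gene counts divided by a size factor for each library (normalized counts). Whole reads recovered from them numbered 18939401 to 26570098 a library, and each one of the 36 rows had at least 109.8 normalized counts in each library. The 10 genes with the most reads took between 17.5% (serum replicate 2) and 50.6% (serum replicate 1) of the reads. All 10 pluripotency markers were present (Pou5f1, Sox2, Nanog and others), with summed normalized counts of 61917 and 84560.2 in serum ESCs against 73284 and 98879 in 2i ESCs. The single markers were not all alike between the conditions. Sall4 was higher in both serum libraries, Nanog, Dppa5a and Fbxo15 were higher in both 2i libraries, and the other markers overlapped.

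The promoters of 6 of these genes are shown first, since they hold more than 1 copy of a 7-base E-box, TCACGTG, of the kind that MiT/TFE factors bind. They are the genes with at least 2 copies in 1 promoter window, running from 250 bases before to 50 bases after the start of the gene in RefSeq (build GRCm38.p6). A match of letters does not tell which factor, if any, binds there. Capitals mark the copies on either strand (CACGTGA where it lies on the other strand, TCACGTGA where a copy on each strand overlaps), and each sequence runs 5′ to 3′ on the strand of the gene. They are Lamp1 at chr8:13159087-13159164 (+), Ctsa at chr2:164833748-164833796 (+), Ctsd at chr7:142387907-142388077 (-), Mcoln1 at chr8:3500435-3500492 (+), Cln3 at chr7:126583339-126583398 (-) and Gla at chrX:134601181-134601245 (-).
Lamp1: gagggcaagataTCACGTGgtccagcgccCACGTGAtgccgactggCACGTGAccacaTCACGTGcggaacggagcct
Ctsa: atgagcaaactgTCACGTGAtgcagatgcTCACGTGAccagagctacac
Ctsd: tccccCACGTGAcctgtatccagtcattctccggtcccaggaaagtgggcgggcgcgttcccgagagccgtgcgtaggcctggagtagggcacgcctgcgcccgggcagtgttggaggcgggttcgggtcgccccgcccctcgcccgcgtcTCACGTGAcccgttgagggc
Mcoln1: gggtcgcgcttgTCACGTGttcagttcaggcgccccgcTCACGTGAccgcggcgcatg
Cln3: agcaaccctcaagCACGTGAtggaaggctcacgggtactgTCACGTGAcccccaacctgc
Gla: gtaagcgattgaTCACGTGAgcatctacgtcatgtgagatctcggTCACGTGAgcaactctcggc
Lamp1 held 4 copies, and each of the other 5 held 2, with overlapping copies counted once.

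Most lysosomal genes had higher RNA levels in 2i than in serum ESCs, by modest amounts and with wide spread between replicates. Of the 36 rows, 30 were higher in 2i ESCs by their fitted value, against 49.7% of all genes tested, and 6 were higher in serum ESCs. The median log2 fold change of 2i over serum was 0.67 over the 36 rows (quartiles 0.39 and 1.04), and that of all genes tested was -0.0047 (quartiles -0.51 and 0.60). In 20 rows both 2i libraries lay above both serum libraries, against 19.4% of all genes, and in 3 rows (Tfe3, Scarb2 and the second Glb1 model) both serum libraries lay above both 2i libraries, against 20.5%. The libraries of the conditions overlapped in the other 13. The genes were chosen with earlier results of these data known, so these shares only describe the list. In bulk RNA such as this, fewer cells that express a gene and less of its RNA per cell cannot be told apart.

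No single gene passed the test. At an adjusted p-value under 0.05 (limma, Benjamini-Hochberg over all genes tested) and a fold change over 2, 0 of the 36 rows were called in either direction. The same rule called 2 genes of the whole table higher in 2i ESCs (0.0154%) and 0 higher in serum ESCs (0%). The lowest adjusted p of a row was 0.753. At an unadjusted p under 0.05 with the same fold, limma gave 4 rows with higher levels under 2i conditions (Hexa, Lamp2, Psap and Ctsd), against 3% of all genes, and 0 higher in serum ESCs, against 2.97%. Without any test, 11 rows were over 2-fold higher in 2i ESCs, against 15.9%, and 0 in serum ESCs, against 9.89%. DESeq2 on the recovered whole reads called 1 row, Hexa, higher in 2i ESCs, where it called 1.37% of all genes, and 0 higher in serum ESCs, where it called 0.561%. edgeR called 0 rows and 0 genes (0%) in either direction. At an unadjusted p under 0.05 and over 2-fold, edgeR had 3 rows higher in 2i ESCs, against 3.81% of all genes, and 0 higher in serum ESCs, against 2.21%. limma with the replicate number as a block called Hexa too, and 1.22% of all genes higher in 2i and 0.338% higher in serum ESCs.

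**Figure D1:**
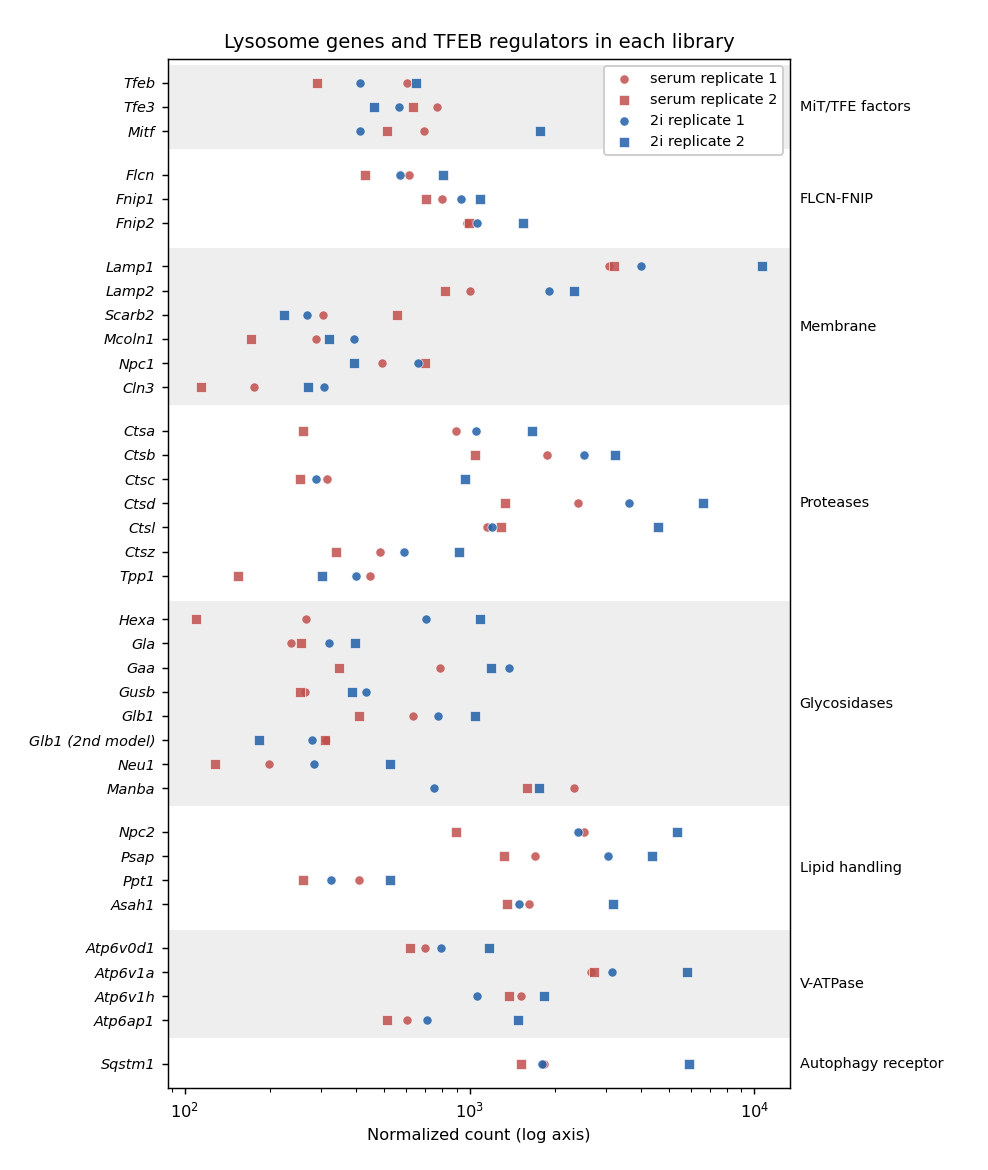
Normalized count (log axis) of each of the 36 rows in the 4 libraries, grouped by role, with serum libraries in red, 2i libraries in blue, circles for replicate 1 and squares for replicate 2. Lamp1 reached 10635 in 2i replicate 2 against 3085 to 4002 in the other libraries, and 26 of the 36 rows had their highest value in that library.

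The size of the difference depended on which libraries were set against each other. Over the 36 rows, the median log2 difference was 0.22 for 2i replicate 1 over serum replicate 1 and 1.24 for 2i replicate 2 over serum replicate 2. Crossing the libraries gave 0.74 for 2i replicate 2 over serum replicate 1 and 0.40 for 2i replicate 1 over serum replicate 2. Libraries of the same condition also differed, by 0.60 for 2i replicate 2 over 2i replicate 1 and by 0.34 for serum replicate 1 over serum replicate 2. The first of these is close in size to the fitted difference between the conditions. All genes tested had medians between -0.0452 and 0.0315 in the same 6 pairs. Between the libraries numbered 1, 22 of the 36 rows were higher in 2i ESCs (49.1% of all genes), and between those numbered 2, 32 were (49%). In 26 rows the highest of the 4 values was that of 2i replicate 2 (30.6% of all genes), and in 24 the lowest was that of serum replicate 2 (27.8%). The rows took 0.289% and 0.198% of the protein-coding reads of serum replicates 1 and 2, against 0.315% and 0.570% of those of 2i replicates 1 and 2. Refitting with 2i replicate 2 left out brought the median to 0.33, and leaving out 2i replicate 1 brought it to 1.07.

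**Figure D2:**
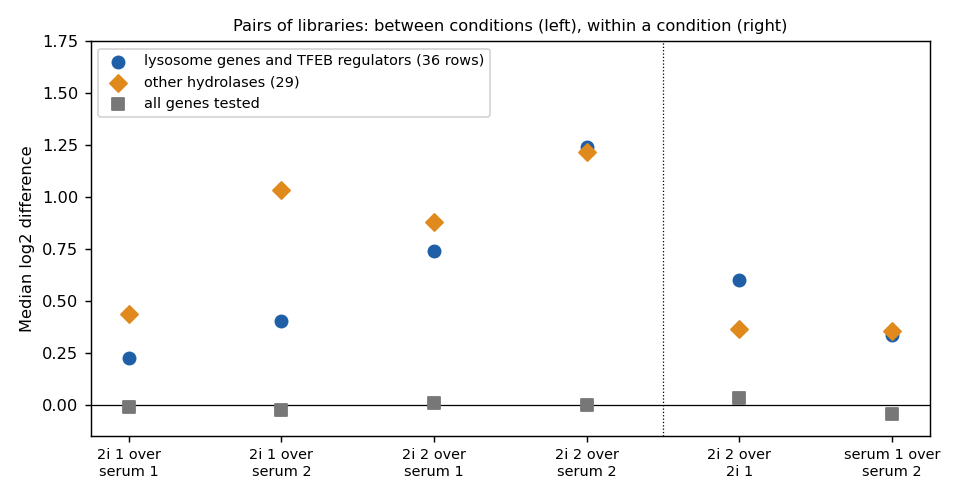
Median log2 difference (vertical axis) of the 36 rows (circles), of 29 other lysosomal hydrolases (diamonds) and of all genes tested (squares) in each pair of libraries, with the 4 pairs between conditions left of the dotted line and the 2 pairs within a condition right of it. The 36 rows ran from 0.22 to 1.24 between conditions and stood at 0.60 and 0.34 within them, while all genes stayed near 0.

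Markers of other cell types moved with the conditions in part. Of 12 endoderm markers 5 were in the table, with sums of 75 and 156 normalized counts in serum ESCs against 337 and 256 in 2i ESCs. Gata4 had 13 and 42.8 in serum ESCs against 152 and 169 in 2i ESCs, and Sox17 had 7 and 7.78 in serum ESCs against 33.22 and 32.98 in 2i ESCs. Cubn, at 3 and 46.7 in serum ESCs against 5.19 and 0 in 2i ESCs, overlapped between the conditions. Its higher mean in serum ESCs rested largely on serum replicate 2. Pdgfra overlapped too, at 47 and 41.8 in serum ESCs against 60.2 and 27.2 in 2i ESCs. Gata6 had 5 and 16.5 in serum ESCs against 87.2 and 27.2 in 2i ESCs. Sox7, Dab2, Foxa2, Afp, Ttr, Apoa1 and Amn were not among the rows. Of 8 fibroblast markers 2 were in the table, with sums of 230.1 and 193 in serum ESCs against 199 and 58.2 in 2i ESCs. Thy1 was higher in both serum libraries, at 173 and 185 against 131 and 7.76 in 2i ESCs. Col1a1 overlapped, at 57.0 and 8.75 in serum ESCs against 68.5 and 50.4 in 2i ESCs. Col1a2, Col3a1, Fap, Lum, Dcn and Postn were not among the rows. Of 7 macrophage markers 2 were in the table, with sums of 326 and 113 in serum ESCs against 396 and 98.0 in 2i ESCs. Both of these, Cd68 and Itgam, overlapped between the conditions. Ptprc, Csf1r, Adgre1, Aif1 and Lyz2 were not among the rows. The part of endoderm-like cells in the difference of the lysosomal genes was not tested.

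The fitted differences of the MiT/TFE factors themselves lay in both directions, each less than its standard error or about equal to it. Tfeb (ENSMUSG00000023990, chr17:47873979-47929368 in build mm9, as are all gene positions that follow) encodes the family member best known as an activator of lysosomal genes. Its normalized counts were 602 and 293 in serum ESCs against 411 and 649.9 in 2i ESCs. The 4 values interleaved, and the fitted log2 fold change of 0.30 (SE 0.55) turned to -0.18 after a correction for GC content and length. Tfe3 (ENSMUSG00000000134, chrX:7339686-7352328), which encodes the factor tied to naive ESC identity, had 768 and 631 normalized counts in serum ESCs against 566 and 462 in 2i ESCs. Both serum values were above both 2i values, with a log2 fold change of 2i over serum of -0.45 (SE 0.44). Mitf, best known for its role in pigment cells, had 691 and 512 in serum ESCs against 411 and 1761 in 2i ESCs. The 2i replicates lay on either side of both serum values and differed 4.28-fold from each other, a larger gap than between the condition means. Per kilobase of transcript, mean levels of the factors in serum ESCs were 191 normalized counts per kb for Tfeb, 206 for Tfe3 and 123 for Mitf, and in 2i ESCs 227, 152 and 222. In serum ESCs the per kb ranges of Tfeb and Tfe3 overlapped, so their order there is not beyond the spread of the replicates.

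All 3 folliculin genes were slightly higher in 2i ESCs. Flcn, the GTPase-activating subunit, had 611 and 431 normalized counts in serum ESCs against 569 and 808 in 2i ESCs. Fnip1 had 801 and 704 in serum ESCs against 931 and 1092 in 2i ESCs. Fnip2, the alternative partner of folliculin, had 978 and 995 in serum ESCs against 1061 and 1536 in 2i ESCs. The groups overlapped for Flcn and not for either partner, where 19.4% of all genes were higher in 2i ESCs without overlap. The fitted log2 fold changes of the 3 genes lay close together at 0.40 (SE 0.47), 0.42 (SE 0.42) and 0.37 (SE 0.44). Each was less than its standard error or about equal to it.

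**Figure D3:**
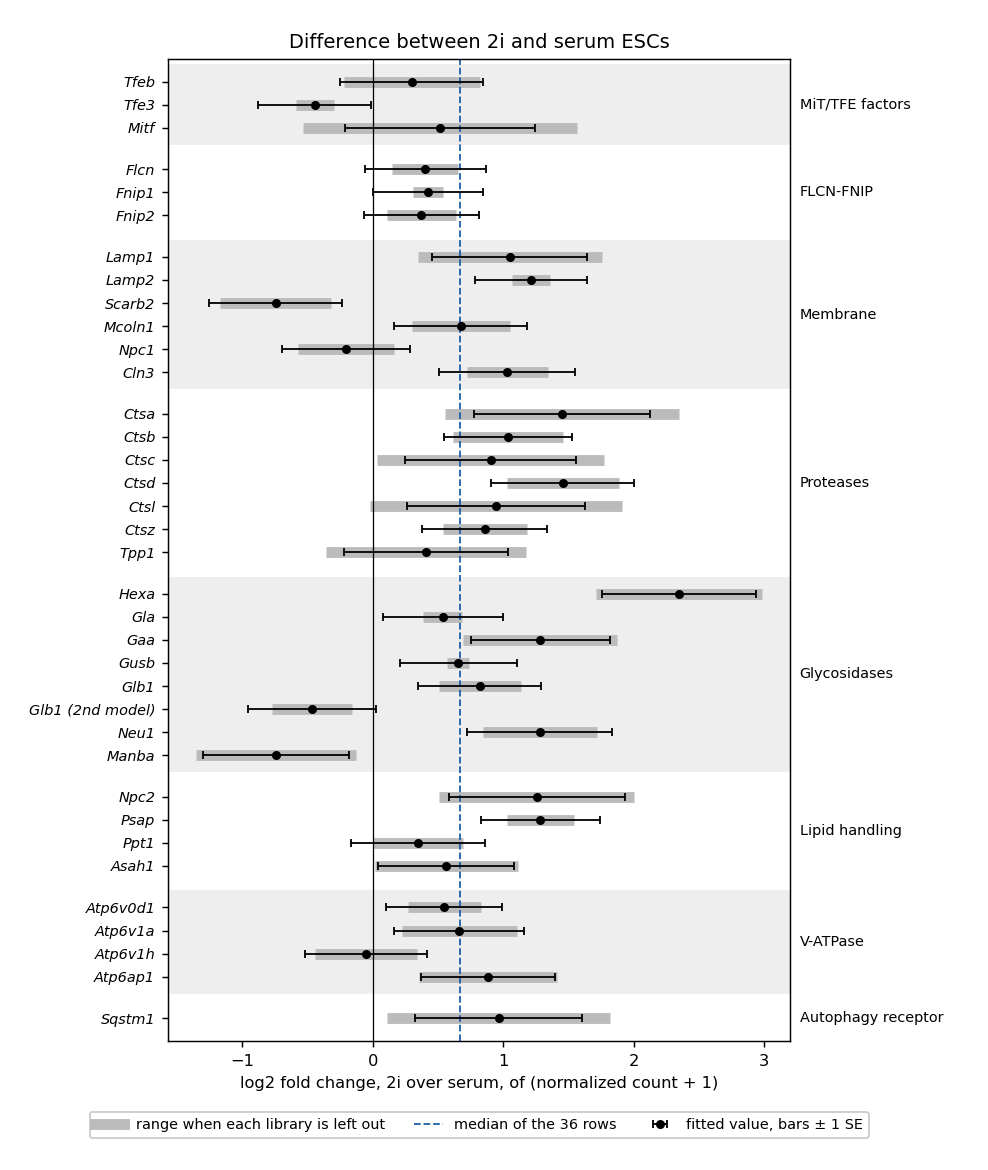
Fitted log2 fold change of 2i over serum (horizontal axis) for each row, with bars of 1 standard error, grey bands for the range when each library was left out in turn, a solid line at 0 and a dashed line at the median of 0.67. Hexa stood farthest to the right at 2.35, and Scarb2 and Manba farthest to the left at -0.75 and -0.74.

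Among the lysosomal membrane proteins, Lamp1 and Lamp2, the abundant glycoproteins that line the lysosome's inner face, were higher in 2i ESCs. Lamp2 (ENSMUSG00000016534, chrX:35754534-35809631) had 1001 and 818 normalized counts in serum ESCs against 1901 and 2321 in 2i ESCs. The 2i values lay clear of the serum values, and the difference was even across replicates, with a log2 fold change of 1.21 (SE 0.43, adjusted p = 0.753 with limma) and a range of 1.07 to 1.36 when a library was left out. Lamp1 (ENSMUSG00000031447, chr8:13159135-13175338 in mm9) had 3085 and 3219 in serum ESCs against 4002 and 10635 in 2i ESCs. Its serum values were close together and 2i replicate 2 stood far above 2i replicate 1, so that the log2 fold change of 1.05 (SE 0.60) became 0.34 without 2i replicate 2.

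Cln3, a lysosomal membrane protein mutated in Batten disease, had 175 and 114 normalized counts in serum ESCs against 309 and 271 in 2i ESCs. Mcoln1, the lysosomal calcium channel, had 288 and 171 in serum ESCs against 392 and 321 in 2i ESCs. Both genes were higher in both 2i libraries, with log2 fold changes of 1.03 (SE 0.52) and 0.67 (SE 0.51). Scarb2, the receptor that carries glucocerebrosidase to lysosomes, had 306 and 555 in serum ESCs against 269 and 224 in 2i ESCs. It was higher in both serum libraries, with a log2 fold change of -0.75 (SE 0.51). Npc1, which exports cholesterol from lysosomes, had 494 and 696 in serum ESCs against 657 and 393 in 2i ESCs, and its values interleaved.

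All 7 proteases were higher in 2i ESCs by the fitted value, 4 of them without overlap (19.4% of all genes), with a median log2 fold change of 0.95. Ctsd (ENSMUSG00000007891, chr7:149557053-149573943), the main aspartyl protease of lysosomes, had 2403 and 1328 normalized counts in serum ESCs against 3636 and 6604 in 2i ESCs. Its lowest 2i value exceeded its highest serum value, with a log2 fold change of 1.46 (SE 0.55) that stayed between 1.025 and 1.886 when a library was left out. Ctsa, the protective protein of the galactosidase and neuraminidase complex, had 898 and 259.5 in serum ESCs against 1054 and 1655 in 2i ESCs. Its log2 fold change of 1.45 (SE 0.67) rested largely on serum replicate 2, without which it was 0.56. Ctsb, a cysteine protease, had 1869 and 1045 in serum ESCs against 2529.9 and 3252 in 2i ESCs, a log2 fold change of 1.04 (SE 0.49). Ctsz, a carboxypeptidase, had 483 and 339 in serum ESCs against 588 and 919 in 2i ESCs, a log2 fold change of 0.86 (SE 0.48). Neither gene overlapped between the conditions.

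The other 3 proteases overlapped. Ctsl, a cysteine protease, had 1153 and 1292 normalized counts in serum ESCs against 1203 and 4592 in 2i ESCs. Ctsc, which activates serine proteases of immune granules, had 315 and 254 in serum ESCs against 289.6 and 967 in 2i ESCs. In both, 2i replicate 1 was at the serum level and 2i replicate 2 was far above it, and without 2i replicate 2 the log2 fold changes of 0.95 and 0.90 became -0.02 and 0.03. Tpp1, a tripeptidyl peptidase, had 446 and 154 in serum ESCs against 399 and 304 in 2i ESCs, with serum replicate 1 the highest of the 4.

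The glycosidases held the gene with the largest difference of all 36 rows. Hexa (ENSMUSG00000025232, chr9:59387474-59412914), the alpha subunit of beta-hexosaminidase that is mutated in Tay-Sachs disease, had 266 and 109.8 normalized counts in serum ESCs against 702 and 1092 in 2i ESCs. Both 2i values were above the higher serum value, and the fitted log2 fold change was 2.35 (SE 0.59). Its adjusted p was 0.753 with limma, 0.692 with edgeR, 0.0432 with DESeq2 and 0.0313 with limma and the replicate number as a block, so the call depended on the test. Leaving out a library left it between 1.71 and 2.98. Mean levels were 101 normalized counts per kb in serum and 481 in 2i ESCs. Among protein-coding transcripts, every 43-base word of those of Hexa, the read length of these libraries, was its own.

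Gaa, the acid alpha-glucosidase that degrades glycogen, had 790.4 and 347 normalized counts in serum ESCs against 1370.3 and 1187 in 2i ESCs. Neu1, the lysosomal sialidase, had 198 and 127 in serum ESCs against 285 and 525 in 2i ESCs. Both had log2 fold changes of 1.28, with standard errors of 0.53 and 0.56, and no overlap. Gusb, the beta-glucuronidase, had 265 and 255 in serum ESCs against 434 and 386 in 2i ESCs. Gla, the alpha-galactosidase, had 237 and 256 in serum ESCs against 322 and 397 in 2i ESCs. These had the tightest replicates of the group, with smaller log2 fold changes of 0.65 (SE 0.45) and 0.54 (SE 0.46). Manba, the beta-mannosidase, went the other way, with 2325 and 1588 in serum ESCs against 752 and 1756 in 2i ESCs. Its values overlapped, and its log2 fold change was -0.74 (SE 0.56).

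Both gene models that carry the symbol of Glb1, the beta-galactosidase, lie on chromosome 9. The longer (ENSMUSG00000045594, chr9:114310194-114383495) had 634 and 410.2 normalized counts in serum ESCs against 773 and 1049 in 2i ESCs. The shorter (ENSMUSG00000079260, chr9:114310223-114316394) had 312 and 312 in serum ESCs against 279 and 182 in 2i ESCs. They differed in opposite directions without overlap, with log2 fold changes of 0.82 (SE 0.47) and -0.47 (SE 0.49). The shorter model is counted here by its symbol alone, and whether it encodes the beta-galactosidase was not examined. Of the 43-base words of the transcripts, 95.7% of each model were its own, and reads from the shared part were divided between them by estimation, so the split is uncertain.

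The 4 genes of lipid breakdown and lipid carriage were all higher in 2i ESCs by the fitted value. Psap (ENSMUSG00000004207, chr10:59740375-59765345), the precursor of the saposins that present sphingolipids to hydrolases, had 1703 and 1324 normalized counts in serum ESCs against 3061 and 4369.9 in 2i ESCs. The 2i values were well clear of the serum values, with a log2 fold change of 1.28 (SE 0.46) that stayed between 1.03 and 1.54 when a library was left out. Npc2, the soluble cholesterol carrier, had 2525 and 893 in serum ESCs against 2412 and 5337 in 2i ESCs. Asah1, the acid ceramidase, had 1612 and 1348 in serum ESCs against 1493 and 3181 in 2i ESCs. Ppt1, a palmitoyl-protein thioesterase, had 409 and 259.5 in serum ESCs against 326 and 528 in 2i ESCs. In each of these last 3 genes 2i replicate 1 lay between the serum values, and the log2 fold changes were 1.26 (SE 0.67), 0.56 (SE 0.52) and 0.35 (SE 0.51).

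The V-ATPase pumps protons into the lysosome, and the median log2 fold change of its 4 genes was 0.61. Atp6v1a, the catalytic subunit, had 2661 and 2739 normalized counts in serum ESCs against 3157 and 5799.8 in 2i ESCs. Atp6v0d1, a subunit of the membrane sector, had 697 and 620.1 in serum ESCs against 791 and 1168 in 2i ESCs. Atp6ap1, an accessory protein of its assembly, had 603 and 511 in serum ESCs against 711 and 1479 in 2i ESCs. These 3 were higher in 2i ESCs without overlap, against 19.4% of all genes. In each, 2i replicate 1 was just above serum, and the log2 fold changes were 0.66, 0.55 and 0.88. Atp6v1h, a regulatory subunit, had 1516 and 1376 in serum ESCs against 1062 and 1829 in 2i ESCs, and its log2 fold change of -0.05 (SE 0.47) turned to 0.07 with upper quartile scaling. Sqstm1, the autophagy receptor p62, had 1829 and 1520.2 in serum ESCs against 1796 and 5892 in 2i ESCs. Only its 2i replicate 2 stood above serum, and 81.3% of its 43-base words were its own, the others being shared with the overlapping model 3010026O09Rik.

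Per kilobase of transcript, Lamp1 had the highest mean level of the rows in both conditions, at 1398 normalized counts per kb in serum and 3246 in 2i ESCs, and Ctsd the next highest, at 877 and 2406. In serum ESCs Atp6v1h followed at 732, Atp6v1a at 638, Sqstm1 at 626 and Ctsl at 620.1, and in 2i ESCs Ctsl at 1470.1, Sqstm1 at 1438 and Psap at 1398. The lowest row was Cln3 in serum ESCs, at 45.1, and the second Glb1 model in 2i ESCs, at 79.0, just under Cln3 at 90.5. In serum ESCs the libraries of neighbours in this order overlapped, other than Lamp1 with Ctsd and Atp6v1h with Atp6v1a, and in 2i ESCs those of all neighbours named here overlapped. Over the 4 libraries, the median over the genes was 263 per kb, against 139 for all genes tested. Transcript length (median 2687 bases against 3028) and GC content (51.3% against 50.3%) were near those of all genes tested. Some transcripts shared sequence with overlapping genes, and the share of 43-base words of their own was 84% for Ctsa, 84.5% for Ctsb, 88.8% for Cln3, 93.9% for Lamp1 and 94.8% for Ctsd.

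The promoter windows were searched for CACGTG and, within it, for TCACGTG and TCACGTGA, each on both strands, the longer containing the shorter. RefSeq promoters of build GRCm38.p6 were at hand for 31 of the 35 genes, in 39 windows, and not for Asah1, Atp6v1h, Ctsb or Npc1. TCACGTG occurred in 11 of the 31 genes (35.5%), against 4.29% of all 27025 genes with a window and 7.33% of the 8509 tested genes with one. CACGTG occurred in 12 (38.7%, against 8.09% of all genes and 12.4% of the tested genes) and TCACGTGA in 7 (22.6%, against 1.12% and 2.32%). The genes were listed for their part in the lysosome and in its control by MiT/TFE factors. Their shares are therefore not those of genes listed without regard to such motifs. By role, TCACGTG was found in 2 of 3 V-ATPase genes, 3 of 5 membrane proteins, 3 of 7 glycosidases and 2 of 6 proteases with a window, in 1 of 3 folliculin genes, and in none of the MiT/TFE factors, the lipid genes or Sqstm1.

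The 11 genes with TCACGTG were Lamp1, Mcoln1, Cln3, Ctsa, Ctsd, Gaa, Gla, Glb1, Fnip1, Atp6v0d1 and Atp6v1a. In all 11 both 2i libraries lay above both serum libraries, against 19.4% of all genes tested, and their median log2 fold change was 0.82 (range 0.42 to 1.46). Of the 20 genes with a window and no copy, 17 were higher in 2i ESCs, 8 without overlap, with a median of 0.76. The genes without a copy included Hexa, Psap and Lamp2. Outside the 35 genes, 613 tested genes had TCACGTG in a window, of which 16.6% were higher in 2i ESCs without overlap, with a median of -0.07. This split by motif was made after the values had been seen and was not tested, and a match of letters is not a measured binding site.

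Of 137 further genes of the pathway that were tested, 90 were higher in 2i ESCs (49.7% of all genes). Without overlap, 38 were higher in 2i ESCs (19.4% of all genes) and 16 in serum ESCs (20.5%), and these shares of all genes are the background for the lists that follow. None was called by limma (0 of 137), while 8 had an unadjusted p under 0.05 and over 2-fold higher levels in 2i ESCs (3% of all genes) and 0 in serum ESCs (2.97%). The median log2 fold change was 0.25. Of 29 other hydrolases, 26 were higher in 2i ESCs, 18 without overlap, with a median of 0.99. Of 13 other V-ATPase genes 10 were higher, 4 without overlap, with a median of 0.42, and of 21 rows of other membrane proteins 15 were, 6 without overlap, with a median of 0.39. Of 16 sorting and tethering genes 10 were higher, 0 of them without overlap, and 2 were higher in serum ESCs without overlap, with a median of 0.15. The 28 genes of mTORC1 and its Rag pathway split evenly, with 14 higher in 2i ESCs and a median of 0.0092, and without overlap 4 were higher in 2i and 5 in serum ESCs. So did 30 genes of the autophagy machinery, with 15 higher in 2i ESCs and a median of -0.0079, and without overlap 6 were higher in 2i and 7 in serum ESCs, near the shares of all genes. The counts and medians of these lists include genes that passed the filter on low values through a single condition, such as Idua, Ids and Abcb9. That filter fixed the direction of such genes, and they were not counted apart.

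**Figure D4:**
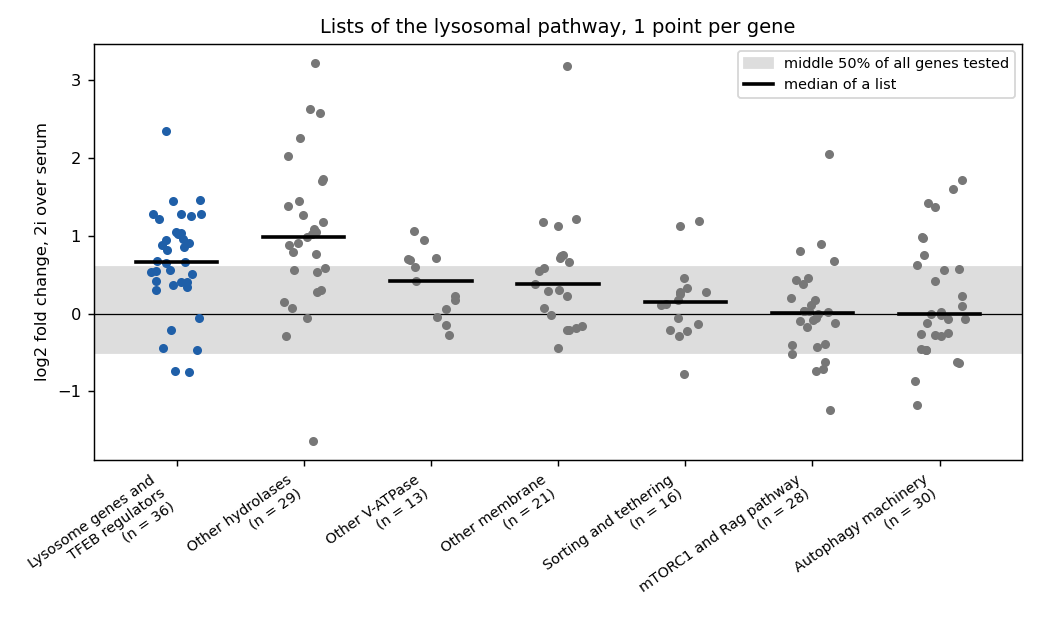
Fitted log2 fold change of 2i over serum (vertical axis), with 1 point per gene, for the 36 rows (blue) and 6 other lists of the pathway (grey), with black lines at the medians and a grey band for the middle 50% of all genes tested. The medians ran from 0.99 for the other hydrolases and 0.67 for the 36 rows down to 0.0092 and -0.0079 for the mTORC1 pathway and the autophagy machinery.

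Among the other hydrolases, Idua, the alpha-L-iduronidase, was low throughout, at 14.0 and 3.89 normalized counts in serum ESCs against 48.8 and 51.4 in 2i ESCs. Ids, the iduronate sulfatase, had 109 and 152 in serum ESCs against 23.9 and 68.9 in 2i ESCs. The log2 fold change was 2.58 (SE 1.69) for Idua and -1.64 (SE 0.85) for Ids, the list's gene highest in serum ESCs. Idua passed the filter on low values only through its 2i mean and Ids only through its serum mean, so that filter fixed both directions.

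The nutrient-sensing genes below were picked for the largest differences in each direction without overlap, so both directions appear by that choice. Their list as a whole split evenly, and limma called none of it. Rragd, a Rag GTPase of the folliculin pathway and a known TFEB target, had 32 and 249.8 normalized counts in serum ESCs against 330.1 and 429.7 in 2i ESCs. Rraga, its partner type, had 899 and 965 in serum ESCs against 769 and 203 in 2i ESCs. Rheb, the GTPase that activates mTORC1, had 1242 and 1698 in serum ESCs against 872 and 873 in 2i ESCs. Rragd was thus higher in both 2i libraries, with serum replicates that differed widely, and the other two were higher in both serum libraries. Sesn3, which restrains mTORC1, had 163 and 146 in serum ESCs against 343 and 243 in 2i ESCs.

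Of the autophagy machinery, Gabarapl1, a member of the Atg8 family, had 458 and 301 normalized counts in serum ESCs against 1064 and 1191 in 2i ESCs. Ulk2, an autophagy-starting kinase, had 95 and 59.3 in serum ESCs against 239 and 259.97 in 2i ESCs. The receptors Tax1bp1 and Optn lay the other way, at 2607 and 4592 in serum ESCs against 981 and 2392 in 2i ESCs for Tax1bp1, while Optn was at 240.1 and 181 in serum ESCs against 122 and 107 in 2i ESCs. None of these overlapped between the conditions, as the rule for naming them required. The log2 fold change of Gabarapl1 was 1.60 (SE 0.45), with an adjusted p of 0.753 with limma, 0.0462 with DESeq2 and 0.180 with limma and the replicate block.

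The remaining lists add genes of the proton pump, of transport across the lysosome's membrane and of sorting. Atp6v0b and Atp6v1f of the V-ATPase had log2 fold changes of 1.06 (SE 0.54) and 0.95 (SE 0.50). Ctns, the cystine exporter, had 1.22 (SE 0.62), and Abcb9, a lysosomal peptide transporter, rested on 10 and 6.80 normalized counts in serum ESCs against 131 and 52.4 in 2i ESCs. Abcb9 passed the filter on low values only through its 2i mean, so its direction was fixed as well. Rab7, the GTPase of late endosomes, was higher in serum ESCs, at 1435 and 1253 against 1011 and 610.1 in 2i ESCs. Laptm4a and Gga2 were also higher in both serum libraries, by log2 fold changes of 2i over serum of only -0.18 and -0.21.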

How the data were processed

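RNA of serum and 2i ESCs was measured in 2 libraries each. Per the study's methods, ribosomal RNA was removed from total RNA, fragments were primed at random, and single reads of 43 bases were aligned with Bowtie to mm9 and assigned to genes with MMSeq. The deposited values are a signal that the authors made by dividing gene counts by a DESeq2 size factor per library. All values (100%) were whole multiples of 1 step per library (tolerance 0.1 read), and the smallest gene total was 51 reads. Identifiers were named from GENCODE vM1 (14462 of 14533 genes).

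Genes averaging 50 or more normalized counts in serum or 2i ESCs were tested with limma 3.58.1 in R 4.3.3, using log2(normalized count + 1), a variance trend and Benjamini-Hochberg adjustment. This scale understates the change of low genes. No exact permutation test was used, since 2 libraries against 2 allow no two-sided p below 0.333. Pseudocounts of 0.5 and 5, no filter, a mean of at least 200, TMM and upper quartile scaling, no trend, edgeR 4.0.16 and DESeq2 1.42.0 on whole reads, a correction for GC content and length (mgcv 1.9.3), a replicate block and leaving out each library were the alternatives. The fit was tested on simulated counts of independent libraries with a common spread for all genes, which these libraries need not share. Levels per kb divide by transcript length. Sharing of sequence was counted over 43-base words of protein-coding transcripts, and other transcripts and the rest of the genome were not searched.

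The 35 genes, the other lists and the markers were chosen with earlier results of these data known. Any of the 35 genes and the markers may be named, and of the other lists up to 2 genes with the largest fitted difference in each direction among those whose conditions did not overlap. The values of 1 gene that this rule names are not reported here. Numbers 1 and 2 occur in both conditions, but no source says that they mark a shared culture or day.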

Additional observations from a re-analysis of the deposited data

How the results depend on the processing

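With 2 libraries per condition, 1 library can decide the size of a difference. The median log2 fold change of the 36 rows, 0.67, was between 0.66 and 0.79 under every setting that kept all libraries, and between 0.33 (without 2i replicate 2) and 1.07 (without 2i replicate 1) when a library was left out, with 28 to 31 rows higher in 2i ESCs. That of the other pathway genes, 0.25, was between 0.022 and 0.45 when a library was left out. Over 432 single-gene values under settings that kept all libraries, 425 had the same direction, and 30 rows kept their direction under every alternative, those without a library included.

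Called genes over the whole table were 2 higher in 2i and 0 higher in serum ESCs with limma. They were 178 and 73 with DESeq2, 0 and 0 with edgeR, 0 and 0 after the GC and length correction and 4 and 0 with a mean of at least 200. Without the trend they were 1 and 0, and they were 0 to 0 in both directions when any library was left out. With the replicate block they were 159 and 44, and 0 and 0 with the block and the GC and length correction. The correlation of the replicate differences of the conditions was 0.48 over all genes and -0.0357 over the 36 rows, from only 2 pairs, so the numbers were not shown to pair the libraries. Among the 36 rows, DESeq2 and the replicate block each called 1, Hexa (log2 fold change 2.27 and 2.35), and among the other pathway genes each called 1, which with DESeq2 was Gabarapl1. At an unadjusted p under 0.05 and over 2-fold, the count of 4 rows higher in 2i ESCs was 0 without serum replicate 2 or without 2i replicate 2 and 11 without 2i replicate 1, and that of 0 rows higher in serum ESCs was 1 (Manba) without 2i replicate 2. In these fits the lone library of a condition is assumed to vary like the other condition's. The median of all genes was -0.12 with a mean of at least 200 and 0.12 with upper quartile scaling.

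The direction turned for 6 rows. Tfeb was at -0.18 after the GC and length correction, with and without the block, and ran from -0.22 to 0.82 when a library was left out. Atp6v1h was at 0.0695 with upper quartile scaling, 0.0271 with edgeR, 0.0167 with DESeq2 and 0.15 after the GC and length correction, with and without the block, and ran from -0.44 to 0.34 when a library was left out. Leaving out a library gave -0.53 to 1.56 for Mitf, -0.58 to 0.16 for Npc1, -0.0202 to 1.91 for Ctsl and -0.36 to 1.17 for Tpp1. The cause was not tested in any of these.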
